A study of Mus musculus with 31 samples.

Results

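Livers of mice homozygous for the ERRα3SA allele were set against livers of their WT littermates in bulk RNA-seq counts, and the changes outside the interferon-stimulated genes were described. The samples were chosen by their labels, which gave 4 ERRα3SA and 4 WT livers, 8 of the 31 samples of the series. They are named here WT 1 to WT 4 and 3SA 1 to 3SA 4 by the replicate number in the label. ERRα3SA mice carry alanine in place of serines 19, 22 and 26 of ERRα, a knock-in made with CRISPR/Cas9 and bred into C57BL/6N. WT and ERRα3SA mice were male littermates from heterozygous matings, 2 to 3 months old, kept on a standard diet with no treatment given in the labels, and their tissues were taken between ZT 2 and ZT 6. A pair of further comparisons serves as contrast. Muscle, gastrocnemius with soleus, of 4 WT and 4 ERRα3SA mice was described for the same mouse line and age. Livers of 4 ERRα-/- mice and 4 WT mice, 2 to 3 months old, were taken at ZT 6 after a 12 h fast and an injection of saline. No fast or injection is given for the knock-in livers, so the comparisons may differ in feeding state. The knockout has its own WT controls. Each library is labelled as a separate sample, and the labels do not tie a liver to a muscle of one mouse.

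ERRα is an orphan nuclear receptor, encoded by *Esrra*, that works with coactivators such as PGC-1α on genes of oxidative phosphorylation, the TCA cycle and fatty acid oxidation, and in liver it also bears on gluconeogenesis and lipid handling. GSK3β, a kinase that insulin holds in check, phosphorylates proteins that are then recognised by FBXW7, the substrate-binding subunit of a ubiquitin ligase, and degraded. The allele was designed to take the receptor out of that control by removing the serines that the kinase would modify.

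Total counts in the WT livers were 33412022, 26176391, 24687935 and 23426588, and in the ERRα3SA livers 22836176, 22471238, 22454730 and 20481405. WT 1 was thus the deepest and 3SA 4 the shallowest library, and every ERRα3SA library was shallower than every WT library. The spread of expression between livers of one group beyond counting noise, as a coefficient of variation, was 16.9%. Levels are given as CPM, counts scaled to the effective size of each library. The markers of the labelled tissue were present. All 16 hepatocyte markers were tested, with summed levels of 120908 to 140149 CPM in the WT livers and of 91130 to 135317 in the ERRα3SA livers, and *Alb*, encoding serum albumin, was the most abundant. The 4 male-specific markers summed to 154 to 177 CPM in all 8 livers, and *Xist* was at 0.0895 CPM or less. Of the tissues that could be carried along at dissection, pancreas markers, led by *Ctrb1*, summed to 881 CPM in 3SA 1 and 207 CPM in WT 1 against 23.8 to 55.6 CPM elsewhere, and skeletal muscle markers, led by *Mylpf*, to 19.3 CPM in WT 1 and 18.5 CPM in 3SA 3 against 0.602 to 1.43 CPM elsewhere.

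3SA 4 stood apart from the other 7 livers, and results that rest on it are given with and without it. On the first principal component of log2 CPM, which held 37.6% of the variance, it lay at 52.1 while the others lay between -27.0 and 9.97. Its counts differed from those of 3SA 1, 2 and 3 by a chi-square per degree of freedom of 152 to 241, where the other pairs within a group gave 13.5 to 52.4. *Alb* took 4.04% of its counts against 6.27 to 7.77% in the others, and its mean level of acute-phase genes, which the liver makes under inflammatory signals, was 8.62 log2 CPM against 6.66 to 7.11. *Saa1*, an acute-phase apolipoprotein named after its values were seen, had 1995 CPM in 3SA 4 and 17.8 to 79.2 CPM in the other livers. *Lcn2*, which binds bacterial siderophores, had 212 CPM there against 1.61 to 6.05, and *Orm2*, an acute-phase glycoprotein, 209 CPM against 7.34 to 15.1. *Scd1*, a fatty acid desaturase also named after its values were seen, had 581 CPM there against 11863 to 36703. The second component, with 15.9% of the variance, had all WT livers between 7.68 and 19.6 and all ERRα3SA livers between -20.6 and -6.40.

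**Figure D1:**
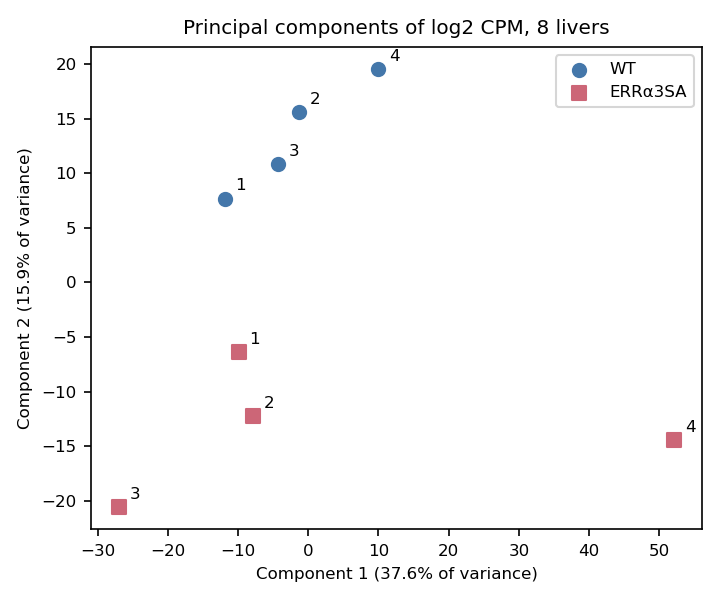
The first 2 principal components of log2 CPM are plotted for 8 livers, with the share of variance on each axis, WT as circles and ERRα3SA as squares, numbered by replicate. 3SA 4 lies at 52.1 on the first component, and the second component has all WT livers above 0 and all ERRα3SA livers below 0.

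The knock-in site lies in exon 2 of 7 of *Esrra* (ENSMUSG00000024955), on the minus strand of chromosome 19 at chr19:6920310-6920333 in GRCm38. The GENCODE reference coding sequence of this stretch is printed next, read 5′ to 3′ along the gene, because it shows the 3 codons that the allele replaces, which stand in capitals for serines 19, 22 and 26 in that order.
Esrra codons of serines 19 to 26: AGTcctgacAGTccaaagggtTCC

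The counts per gene do not resolve the edited codons, so the genotype of each library rests on its label. *Esrra* had 26.2, 25.7, 26.8 and 28.0 CPM in the WT livers and 28.0, 24.1, 20.02 and 18.4 CPM in the ERRα3SA livers. 3SA 1 was level with the highest WT liver and the other ERRα3SA livers were below every WT liver, so the groups overlapped. The log2 fold change was -0.24 with a standard error of 0.12, and it missed the p criterion set out below. Without 3SA 1 it passed both criteria at -0.36, and without 3SA 4 it was -0.15. The related receptor *Esrrb* had log2 fold change 0.01 and *Esrrg* 0.16, neither past the test, and both were negative without 3SA 3, at -0.17 for *Esrrb* and -0.30 for *Esrrg*. Without WT 2 or WT 4 both were negative too (-0.02 and -0.08 for *Esrrb*, -0.07 and -0.04 for *Esrrg*), as was *Esrrb* without 3SA 4 (-0.04). Genes close to *Esrra* on chromosome 19 were called at a share like that of the genome, with 11 of 220 tested within 10 Mb (5.0%) and 15 of 255 within 20 Mb (5.88%), beside 4.88% of all genes tested.

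Outside the interferon-stimulated genes, 563 of 13138 genes tested were differentially expressed genes (DEGs), 245 higher and 318 lower in ERRα3SA livers. A DEG, or a called gene, had a change of 1.2-fold or more either way and a p below 0.05 before adjustment. With the list included, 651 of 13339 genes tested (4.88%) were called, 333 higher (2.5%) and 318 lower (2.38%), and of the 201 list members tested 88 were higher and 0 lower by edgeR, at the same p criterion. The median absolute log2 fold change of the 563 was 0.45, 55 of them differed by 2-fold or more, and 478 were protein coding. The list of interferon-stimulated genes was made by symbol and need not hold every gene that interferon can raise. After Benjamini-Hochberg adjustment 0 genes had a p under 0.05 by the quasi-likelihood test of edgeR, where 996 had one before adjustment, and DESeq2 called 36 by its adjusted p, 25 of them outside the list. The single calls that follow therefore rest on unadjusted p-values unless said otherwise, and are given with the values of the livers.

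Of the 563 genes, 362 were called in the same direction without 3SA 4 and 201 were not, and 427 others came in, which gave 789 (287 higher, 502 lower). Genes named here because they were called only when a liver was left out, or as the most abundant marker of a cell type, were chosen after their values were seen. In that fit, over list and other genes, 387 of 13514 were higher (2.86%) and 505 lower (3.74%). For 52 of the 563, the deviation of 3SA 4 from the WT mean was over 3 times that of the other ERRα3SA livers. Each of the other livers bore on the calls too, and 189 of the 563, 80 higher and 109 lower, were called in all 8 fits that left out 1 liver. The CPM of the groups did not overlap at all for 661 of the 13339 genes (4.96%), and for 271 of the 563, 101 higher and 170 lower. The share among the 563 is set in part by their choice in the same livers, so it adds nothing to the calls.

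The 15 higher and 15 lower genes of smallest p among those whose groups did not overlap were of mixed function, and 29 of them are shown gene by gene in the heat map. *Dpy19l3*, which encodes an enzyme that attaches mannose to tryptophan in secreted proteins, had 40.9, 42.6, 47.0 and 38.5 CPM in the WT livers and 26.7, 29.3, 29.0 and 26.3 CPM in the ERRα3SA livers. The ERRα3SA values were all below the lowest WT value, and the log2 fold change of -0.60 (standard error 0.08, lower in 4 of 4 livers) had an adjusted p of 0.102 by the quasi-likelihood test of edgeR with Benjamini-Hochberg adjustment and of 3.36e-06 by DESeq2. Only 1 gene had a smaller p, *AC149090.1*, a locus with no gene name that the naming rule left out and that was picked after its values were seen. It had 81.3, 102, 96.0 and 109 CPM in WT and 51.0, 58.3, 43.5 and 55.9 CPM in ERRα3SA livers, lower in 4 of 4 livers with log2 fold change -0.90 (adjusted p = 0.102 by edgeR with Benjamini-Hochberg adjustment, 1.16e-08 by DESeq2).

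Among the genes that rose, *Exoc4*, a subunit of the exocyst complex that tethers secretory vesicles, had 21.5 to 22.2 CPM in the WT livers and 26.4, 27.9, 28.0 and 28.2 CPM in the ERRα3SA livers, a small change (log2 fold change 0.35, standard error 0.06) with little spread. *Zfp979*, a zinc finger gene, rose from 0.491 ± 0.0808 to 1.44 ± 0.338 CPM (mean ± SD, n = 4), the largest log2 fold change among the 15 at 1.55. *Polr1a*, the largest subunit of RNA polymerase I, rose by 0.33 on the log2 scale, the receptor *Notch1* by 0.50, *Epha2*, an ephrin receptor, by 0.57, and *Tent5a*, a poly(A) polymerase, by 0.54. *Axl*, a receptor tyrosine kinase that takes part in the clearance of dying cells, rose from 21.9 ± 0.901 to 27.9 ± 1.92 CPM (mean ± SD, n = 4). *Rab8b*, a GTPase of vesicle traffic, *Cep85l*, a centrosomal protein, and *Jmjd1c*, of the histone demethylase family, rose by 0.47, 0.45 and 0.37. The groups of all these genes were apart in this fit by the choice that named them.

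Of the genes that fell, *Hhex*, a homeobox factor needed for the development of liver and bile ducts, had 127, 158, 133 and 160 CPM in the WT livers and 95.5, 88.0, 57.0 and 97.3 CPM in the ERRα3SA livers. 3SA 3 was the lowest and no liver crossed over, with log2 fold change -0.78 (standard error 0.16) and -0.85 without 3SA 4. *Foxa2*, a forkhead factor of hepatocytes and cholangiocytes picked after its values were seen, fell by 0.64 with 3SA 4 inside the WT range (46.6, 49.5, 40.8 and 58.2 CPM in WT, 21.6, 30.7, 27.5 and 45.5 CPM in ERRα3SA) and by 0.87 without 3SA 4. *Phf23*, a PHD finger protein, fell by 0.42, *Erf*, a repressor of the ETS family, by 0.45, *G6pc3*, a glucose-6-phosphatase expressed in most tissues, by 0.63, and *H2afj*, a histone variant, by 0.40. *Sirt7*, a nucleolar deacetylase, fell from 49.0 ± 2.35 to 40.7 ± 0.493 CPM (mean ± SD, n = 4), a log2 fold change of -0.27 just past the fold criterion, which it missed without 3SA 1, 3SA 2 or WT 3 (-0.26, -0.26 and -0.23) and by DESeq2 (-0.26). It was the only one of these 30 genes to lose its call in a fit that left out 1 liver. *Pabpn1*, the nuclear poly(A)-binding protein, fell by 0.63 and *Zgpat*, a transcriptional repressor, by 0.42, but these share 21.4% and 37.9% of their exon bases with a neighbouring gene, so reads of the neighbour may be among their counts.

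**Figure D2:**
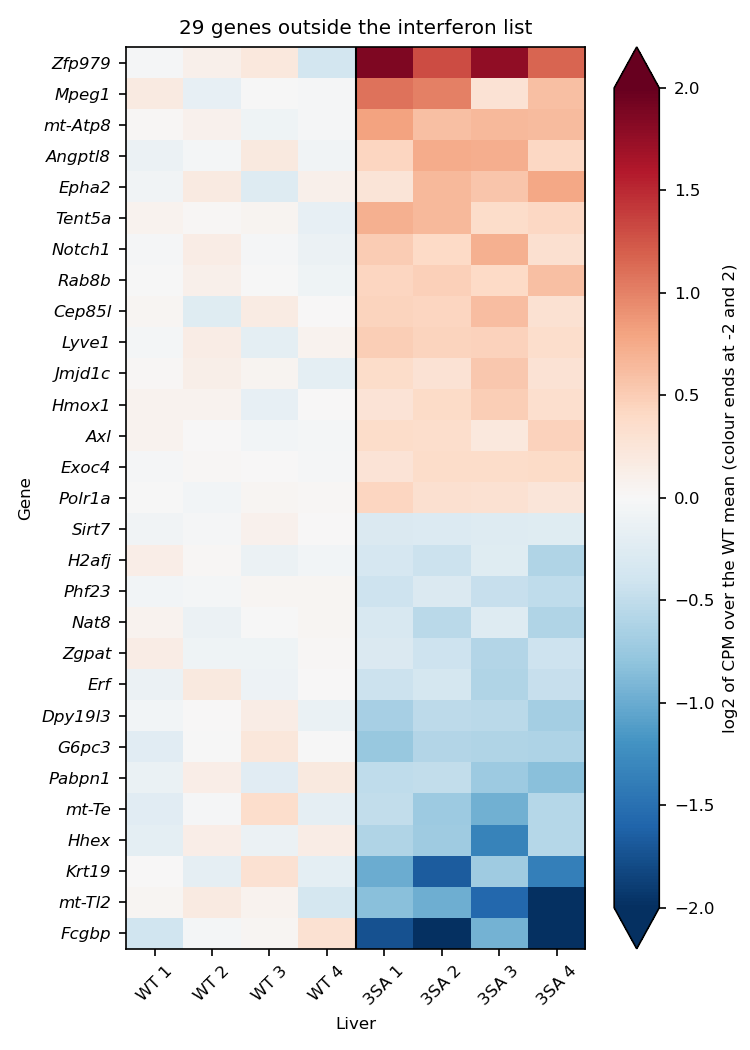
Each row is 1 of 29 genes outside the interferon list and each column 1 of 8 livers, and colour gives log2 of CPM over the WT mean, from -2 to 2. The genes at the top are higher and those at the bottom lower in all 4 ERRα3SA livers, the condition by which they were chosen, and *Fcgbp* and *mt-Tl2* are the darkest of the lower genes.

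Most tested markers of the epithelium of bile ducts were lower in ERRα3SA livers. *Krt19*, a keratin of cholangiocytes, had 2.14, 1.88, 2.65 and 1.87 CPM in the WT livers and 1.07, 0.672, 1.30 and 0.83 CPM in the ERRα3SA livers. All ERRα3SA values were below all WT values, with log2 fold change -1.14 (standard error 0.24) and -1.07 without 3SA 4. Of the 9 cholangiocyte markers listed 7 were tested, and 5 of these fell and none of the 7 rose, where 2.38% of all genes tested fell. *Epcam*, an adhesion molecule, fell by 0.93, *Tspan8*, a tetraspanin, by 0.73, and *Krt7*, a second duct keratin, by 1.11. The fifth, *Muc1*, a mucin named after its values were seen, fell by 1.12 and was not called without 3SA 2 (-0.92) or without WT 3 (-0.91). The list's median log2 fold change was -0.93 over the 7, and 4 to 6 members were lower in each fit that left out 1 liver, while without WT 4 another was higher.

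The summed level of the cholangiocyte markers did not separate the groups, and *Spp1*, osteopontin, made up most of it. The sum was 50.6, 47.6, 45.9 and 50.6 CPM in the WT livers and 43.5, 31.8, 41.2 and 59.7 CPM in the ERRα3SA livers, with 3SA 4 the highest and 3SA 2 the lowest of all. *Spp1* itself was not called with all livers (log2 fold change -0.10) and was lower without 3SA 4 (-0.32). *Fcgbp*, a mucin-like protein, fell by 1.82. *Smim22*, *Cd24a*, *Cdc42ep5* and *Dmbt1* are from no fixed list and were picked for being lower after their values were seen, so they say nothing of duct genes as a group. *Smim22*, a small membrane protein, fell by 1.01, *Cd24a*, a surface protein of progenitor and duct cells, by 0.75, and *Cdc42ep5*, an effector of the GTPase Cdc42, by 1.38, all with groups apart. *Dmbt1*, a secreted scavenger receptor of ducts, fell from 24.1, 21.6, 60.5 and 42.2 CPM to 19.3, 0.0896, 7.45 and 8.20 CPM. 3SA 1 came close to the lowest WT liver, and *Dmbt1* was called neither by DESeq2 nor by edgeR without WT 3 (-1.74). In bulk tissue, fewer cells of a type and less RNA per cell cannot be told apart, here and for the other markers below.

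Some markers of B cells were lower too, at levels near the floor of detection. *Cd79a*, a chain of the B-cell receptor complex, had 1.45, 1.05, 1.22 and 0.976 CPM in the WT livers and 0.403, 0.627, 0.698 and 0.368 CPM in the ERRα3SA livers. The groups did not overlap, and the log2 fold change was -1.17 (standard error 0.28) and -1.03 without 3SA 4. Of 12 markers of B and plasma cells listed 9 were tested, all 9 had a negative log2 fold change (median -0.51), and 4 fell (2 by DESeq2, beside 2.38% of all genes by edgeR). *Pax5*, a factor of B-cell identity, fell by 1.41. *Cd22*, a surface protein of B cells, fell by 0.55 only with certain libraries and was not called without 3SA 2, 3SA 4, WT 1 or WT 4 (-0.52 to -0.51), nor by DESeq2. The list had 2 lower calls without 3SA 2 or without WT 4. The summed level was 36.6, 20.2, 29.8 and 25.5 CPM in WT and 22.2, 20.2, 37.7 and 14.3 CPM in ERRα3SA livers, with *Ighm*, the heavy chain of IgM, the most abundant and the groups overlapping, 3SA 3 having the highest sum of all. *Igha*, the heavy chain of IgA and picked after its values were seen, fell from 2.64 ± 1.31 to 0.893 ± 0.514 CPM (mean ± SD, n = 4). Of the 5 T and NK cell markers tested, 0 were called by edgeR or by DESeq2 with all livers at a p under 0.05 before adjustment, though 1 was higher without WT 1 and 1 lower without 3SA 3.

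Some genes of macrophages rose. *Mpeg1*, a pore-forming protein of phagocytes, had 121, 95.6, 106 and 105 CPM in the WT livers and 226, 216, 131 and 162 CPM in the ERRα3SA livers. 3SA 1 and 3SA 2 were highest and 3SA 3 came closest to the WT livers, with log2 fold change 0.78 (standard error 0.16) and DESeq2 adjusted p of 0.00701. With the muscle groups in the fit *Mpeg1* was not called, nor were *Folr2* and *Vsig4*, named below. Of 16 Kupffer cell and macrophage markers, all tested, 15 had a positive log2 fold change (median 0.18), and 2 were called, both higher (beside 2.5% of all genes). *Folr2*, a folate receptor of resident macrophages, rose by 0.49, although 63.1% of its exon bases are shared with the predicted gene *Gm10602*. *Vsig4*, a complement receptor of Kupffer cells, rose by 0.29 and was not called without 3SA 2, 3SA 4, WT 1, WT 2 or WT 4 (0.31, 0.17, 0.26, 0.28 and 0.25). The count was 7 without 3SA 3, 3 without WT 3 and 1 without WT 1, and without 3SA 4 it was 1, with *Ccr2*, a chemokine receptor of monocytes, lower. The markers summed to 432, 463, 467 and 459 CPM in the WT livers and 524, 525, 443 and 593 CPM in the ERRα3SA livers, led by *Cd5l*, with 3SA 3 within the WT range and 3SA 4 highest. Of other macrophage genes, picked after their values were seen, *Siglec1*, a sialic acid receptor, rose by 0.53, *Slc29a3*, a lysosomal nucleoside transporter, by 0.51, and *Cybb*, the catalytic subunit of the phagocyte oxidase, by 0.35 (0.25 and not called without 3SA 4). The interferon list need not hold every gene that interferon can raise. Whether these macrophage genes rose as part of the interferon change was not tested.

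Other cell types of the liver moved in single markers, where 2.5% of all genes rose and 2.38% fell. Without 3SA 4 those shares were 2.86% and 3.74%. *Lyve1*, a hyaluronan receptor of sinusoidal endothelium, rose from 7.69 ± 0.796 to 10.4 ± 0.453 CPM (mean ± SD, n = 4), while none of the other 11 endothelial markers was called (1 more without WT 2), and the sum of the 12, led by *Clec4g*, was 327 to 392 CPM in WT and 364 to 396 CPM in ERRα3SA livers. *Lrat*, which stores retinol in stellate cells, rose by 0.33, and *Pdgfrb*, the PDGF receptor of the same cells, fell by 0.39, against a marker sum of 406 to 446 and 414 to 444 CPM, led by *Ecm1*. *Lrat* and *Pdgfrb* were the calls among 13 markers of stellate cells and fibroblasts, all tested. Neutrophil markers summed to 222 CPM in 3SA 4 and 5.06 to 10.6 CPM in the other livers, of which *Lcn2* was the most abundant and *Ly6g* at 0 in all 8, and without 3SA 4 none of the 5 tested was called. The 1 dendritic cell marker called of 7 tested, *Bst2*, belongs to the interferon list and rose by 0.41, which was not called without 3SA 1, 3SA 2, WT 1, WT 2 or WT 4 (0.26, 0.34, 0.40, 0.36 and 0.41). No hepatocyte, erythroid, adipocyte, pancreas or skeletal muscle marker was a DEG with all livers by edgeR or by DESeq2. When 1 liver was left out, a hepatocyte marker was lower without 3SA 3, erythroid markers without 3SA 3 (2) or WT 4 (1), and a pancreas marker was lower without 3SA 1 and higher without WT 1. The part of cell composition, or of pancreas and muscle carried along, in the changes of other genes was not tested.

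**Figure D3:**
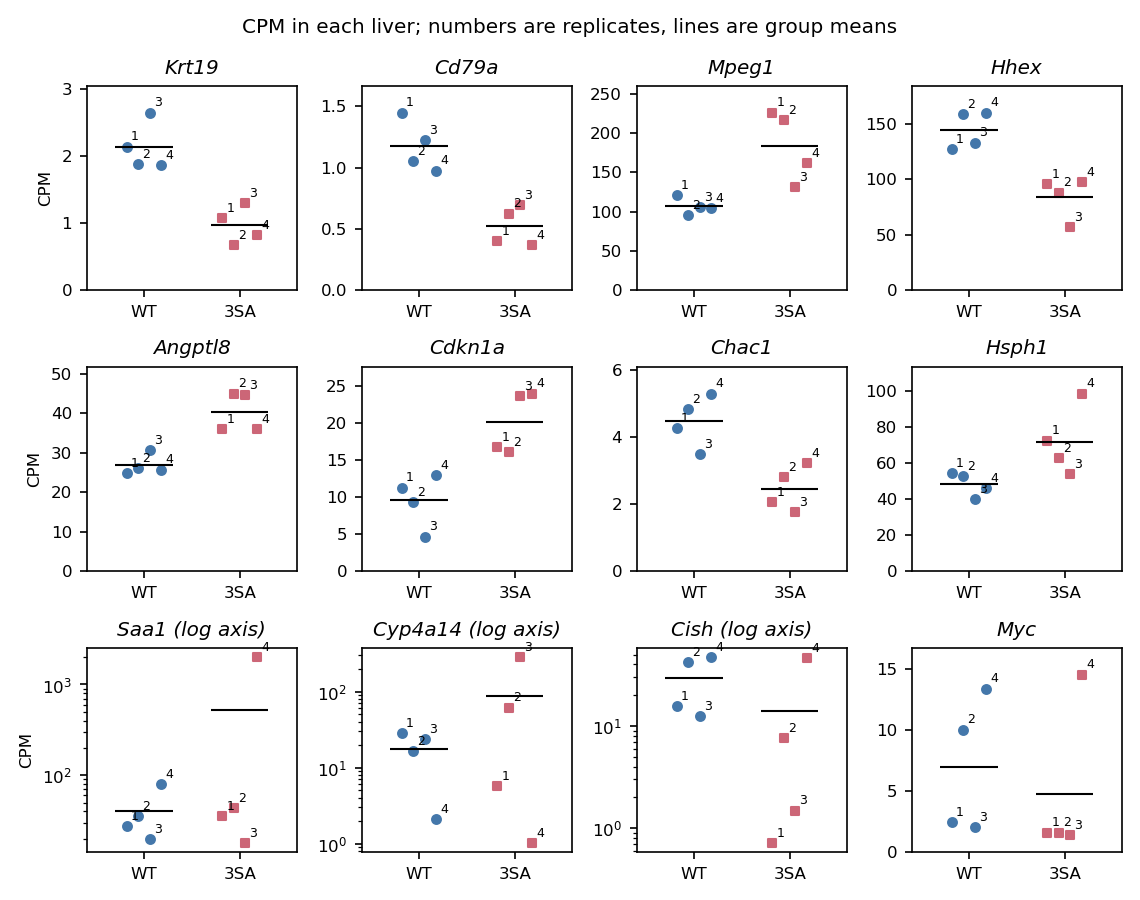
CPM of 12 genes is plotted for each of 4 WT and 4 ERRα3SA livers, numbered by replicate, with lines at the group means, and *Saa1*, *Cyp4a14* and *Cish* on log axes. *Krt19*, *Cd79a*, *Hhex* and *Chac1* are lower and *Mpeg1*, *Angptl8* and *Cdkn1a* higher in all 4 ERRα3SA livers, while 3SA 4 departs from 3SA 1 to 3 for *Saa1*, *Cish* and *Myc*.

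Among cytosolic chaperones 5 genes rose. *Hsph1*, a nucleotide exchange factor for HSP70, had 54.3, 52.5, 39.96 and 46.1 CPM in the WT livers and 72.3, 62.8, 53.7 and 98.3 CPM in the ERRα3SA livers. 3SA 4 was highest and 3SA 3 lay just under WT 1, with log2 fold change 0.57 (standard error 0.17) and 0.38 without 3SA 4. *Chordc1*, a cochaperone of HSP90, had 44.0, 35.5, 34.0 and 34.6 CPM in WT and 44.2, 44.4, 45.9 and 51.9 CPM in ERRα3SA livers. WT 1 nearly reached the lowest ERRα3SA liver, and the log2 fold change was 0.33 (standard error 0.10). Of 19 cytosolic heat shock proteins, all tested, 5 rose, none of them fell and 17 had a positive log2 fold change, with median 0.28 beside -0.00039 over all genes tested and 2.5% of all genes called higher. The others called were *Hspa4l*, an HSP110 family member (0.38), *Stip1*, which links HSP70 to HSP90 (0.28, and 0.21, under the fold criterion, without 3SA 4), and *Hsp90aa1*, the inducible HSP90, named after its values were seen (0.50, and 0.29 without 3SA 4). Without 3SA 4 the median was 0.21 and 6 rose (beside 2.86% of all genes). *Hspa1b*, an inducible HSP70, and *Hspa8*, the constitutive one, came in place of *Stip1* (*Hspa8* was also called without WT 1, at 0.40). In each fit that left out 1 liver, 5 or 6 of the list were higher. *Ubb*, a polyubiquitin gene picked after its values were seen, had 219 to 227 CPM in WT and 262 to 278 CPM in ERRα3SA livers, a log2 fold change of 0.26 (DESeq2 adjusted p = 0.00274) that stayed just under the fold criterion, and passed it without 3SA 1, 3SA 3, 3SA 4 or WT 1 (0.27 in each).

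Promoters of 2 of these genes held the heat shock motif GAANNTTC and are printed because the genes rose together. The sequences are from RefSeq on GRCm38.p6, stretches of the window from 250 bases before to 50 after the start of transcription, with the motif in capitals, *Chordc1* at chr9:18292233-18292310 on the plus strand and *Hsph1* at chr5:149636266-149636325 on the minus strand.
Chordc1: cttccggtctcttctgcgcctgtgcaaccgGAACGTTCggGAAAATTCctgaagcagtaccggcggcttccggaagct
Hsph1: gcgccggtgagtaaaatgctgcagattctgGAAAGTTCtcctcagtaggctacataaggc
The motif reads the same on both strands and occurred in 5.82% of 12979 promoters of tested genes, in 5.86% of the promoters of higher DEGs outside the interferon list and in 6.19% of those of lower ones, so these matches are a description of the promoters of *Chordc1* and *Hsph1* alone.

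Chaperones of the endoplasmic reticulum were higher chiefly in 3SA 2 and 3SA 4. *Sel1l*, part of the complex that returns misfolded proteins to the cytosol, had 198, 197, 173 and 209 CPM in the WT livers and 211, 259, 232 and 299 CPM in the ERRα3SA livers. It was the only one of the group whose livers were apart, and rose by 0.37 (0.27 without 3SA 4). *Pdia4*, a disulfide isomerase, had 242, 212, 188 and 222 CPM against 243, 323, 235 and 435 CPM. 3SA 1 and 3SA 3 were at WT level, and the log2 fold change was 0.52, 0.31 without 3SA 4, and not called without WT 3 (0.46). Of 24 members tested 5 rose (beside 2.5% of all genes), with a median log2 fold change of 0.35 over all 24, and the others were *Creld2* (1.10), *Hsp90b1* (0.51) and *Hspa5*, or BiP, named after its values were seen (0.50), none of which was called without 3SA 4 (0.58, 0.25 and 0.28). Leaving out 3SA 2, WT 2, WT 3 or WT 4 lost each of these 3 calls too, at 0.87 to 1.21 for *Creld2*, 0.44 to 0.53 for *Hsp90b1* and 0.39 to 0.53 for *Hspa5*, and leaving out WT 1 that of *Hsp90b1* (0.54). The count was 8 without 3SA 1, 16 without 3SA 3, 3 without 3SA 2 and 2 without WT 2, WT 3 or WT 4. Without 3SA 4 the median was 0.16, and 3 rose and 1 fell (beside 2.86% and 3.74% of all genes). *Herpud1* was called in place of those lost, and *Xbp1*, a factor of the unfolded protein response, fell by 0.38. DESeq2 called 9, all higher.

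Among genes of lipid metabolism, *Angptl8* changed most clearly. It encodes a secreted inhibitor of lipoprotein lipase that insulin and feeding raise, and had 24.8, 26.2, 30.7 and 25.7 CPM in the WT livers and 36.0, 44.9, 44.5 and 36.0 CPM in the ERRα3SA livers. All ERRα3SA livers were above all WT livers, with log2 fold change 0.59 (standard error 0.10, DESeq2 adjusted p = 0.00395) and 0.64 without 3SA 4. It was the only one of 30 genes of fatty acid and triglyceride synthesis called with all livers (beside 2.5% of all genes higher). Without 3SA 4 *Pnpla3*, a lipid droplet hydrolase, and *Lpin2*, a phosphatidate phosphatase, came in as well. *Pdk4*, the kinase that holds back pyruvate dehydrogenase and a known target of ERRα, had 14.9, 13.0, 11.1 and 11.9 CPM in WT and 17.0, 19.4, 44.4 and 12.2 CPM in ERRα3SA livers. 3SA 3 was far above the rest and 3SA 4 within the WT range. The log2 fold change of 0.87 (standard error 0.34) became 0.35 and was not called without 3SA 3, and was not called without WT 2, WT 3 or WT 4 either (0.88, 0.81 and 0.84). *Pdk4* was the only one of 24 TCA cycle and pyruvate dehydrogenase genes called (beside 2.5% of all genes higher). *Acot11*, an acyl-CoA thioesterase, had 4.50, 5.57, 4.48 and 6.07 CPM in WT and 5.68, 6.54, 7.54 and 11.0 CPM in ERRα3SA livers, with 3SA 4 highest and 3SA 1 inside the WT range. Its log2 fold change of 0.58 was 0.36 without 3SA 4 and not called without WT 1 or WT 3 (0.52 in both), and 20.9% of its exon bases are shared with *Fam151a*.

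The lists of fat oxidation turned on 3SA 4. With all livers 1 of 45 tested genes of fatty acid oxidation and ketogenesis was called, *Acot11* (beside 2.5% of all genes higher), with median log2 fold change 0.07. The list had 0 calls without WT 1 and 1 lower call without 3SA 3, where the median was -0.06. Without 3SA 4 the count was 12 higher, with median 0.18, where 2.86% of all genes were higher. The mean level of the list was 6.71, 6.62, 6.51 and 6.24 log2 CPM in the WT livers and 6.55, 6.81, 7.20 and 5.78 in the ERRα3SA livers. 3SA 3 was the highest liver, 3SA 4 the lowest, and 3SA 1 inside the WT range. Among the 12 genes, and all but *Acot11* named after their values were seen, were *Acot1*, *Acot2*, *Acot3*, *Acot4* and *Acot11*, thioesterases, *Cyp4a14*, an omega-hydroxylase, *Ehhadh* of the peroxisome, *Acsl1*, which activates fatty acids, *Slc25a20*, the carnitine carrier, *Vnn1*, a pantetheinase, and *Ppara*, the nuclear receptor that governs many of them. *Cyp4a14* had 28.5, 16.6, 23.7 and 2.08 CPM in the WT livers and 5.73, 61.7, 283 and 1.01 CPM in the ERRα3SA livers. 3SA 3 was more than 4 times 3SA 2, 3SA 1 was below 3 of the WT livers, and the log2 fold change was 2.30 with 3SA 4, when it missed the p criterion, 2.71 without it, when it was called, and 0.36 without 3SA 3.

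Genes of lipid droplets, uptake and lipoproteins behaved alike, with 1 of 34 called with all livers (beside 2.5% of all genes higher) and 7 without 3SA 4 (beside 2.86%), all higher (3 higher without 3SA 1, 2 without WT 2, 0 without 3SA 2, 3SA 3, WT 3 or WT 4). The 1 called with all livers was *Mgll*, monoacylglycerol lipase (0.35, and 0.40 without 3SA 4, but not called without 3SA 2, 3SA 3, WT 3 or WT 4, with 0.23 to 0.32). Among the others without 3SA 4, and named after their values were seen, were *Cd36*, a fatty acid transporter, *Plin2*, a droplet coat protein, *G0s2*, an inhibitor of lipolysis, *Fabp2* and *Angptl4*. *Cd36* had 46.2, 48.1, 27.8 and 26.8 CPM in WT and 34.5, 68.2, 163 and 26.2 CPM in ERRα3SA livers, again with 3SA 3 highest and 3SA 1 and 3SA 4 inside or below the WT range, and it was called without 3SA 4 (1.25) or 3SA 1 (1.202).

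**Figure D4:**
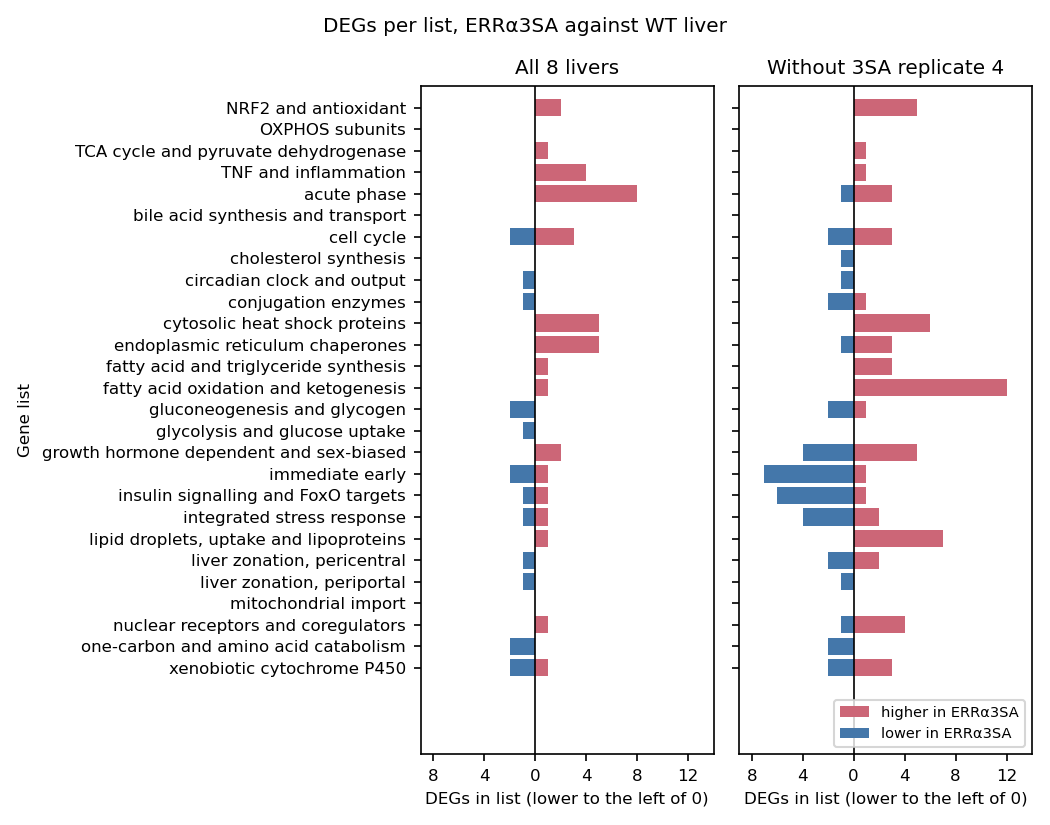
Bars give the number of DEGs in each of 27 gene lists, higher in ERRα3SA to the right and lower to the left, with all 8 livers in one panel and without 3SA 4 in the other. Fatty acid oxidation goes from 1 to 12 higher, lipid droplets from 1 to 7, immediate early genes from 2 to 7 lower and acute phase from 8 to 3 higher.

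Immediate early genes depended on 3SA 4 in the other direction. Of 27 immediate early genes 1 rose and 2 fell with all livers (beside 2.5% and 2.38% of all genes). Without 3SA 4, 1 rose and 7 fell (beside 2.86% and 3.74%). Without 1 of the other livers, 0 to 2 of the list were higher and 1 or 2 lower. The calls with all livers were *Jund*, a subunit of AP-1 (-0.40, with 52.6% of its exon bases shared with *Gm11175*), *Klf4* (-0.70, lost without 3SA 1, 3SA 2, WT 1, WT 2 or WT 3, at -0.70 to -0.51) and *Klf10* (0.90, lost without 3SA 2, 3SA 3, WT 1, WT 3 or WT 4, at 0.68 to 0.95). *Myc*, named after its values were seen, had 2.51, 10.05, 2.08 and 13.4 CPM in the WT livers and 1.61, 1.61, 1.44 and 14.6 CPM in the ERRα3SA livers. WT 2, WT 4 and 3SA 4 were high and the other 5 livers low, so the log2 fold change was -0.54 with and -2.15 without 3SA 4. *Gadd45g* and *Jun*, named likewise, had the same 3 livers high, at 63.7, 76.2 and 75.5 CPM for *Gadd45g* against 3.83 to 6.90 CPM in the rest. *Cish*, a feedback inhibitor that STAT5 induces, had 15.5, 42.4, 12.4 and 47.0 CPM in the WT livers and 0.716, 7.57, 1.49 and 46.1 CPM in the ERRα3SA livers. 3SA 4 matched the highest WT liver while 3SA 1 to 3 were below every WT liver, with log2 fold change -1.07 with 3SA 4, when it was not called, and -3.16 without it. *Cish* was named after its values were seen.

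*Bcl6*, a repressor that STAT5 keeps down in male liver, moved the opposite way in part of the same livers. It had 5.92, 13.4, 6.20 and 12.4 CPM in the WT livers and 66.6, 10.7, 63.9 and 23.1 CPM in the ERRα3SA livers. 3SA 1 and 3SA 3 were far above all others and 3SA 2 inside the WT range, with log2 fold change 2.12 (standard error 0.55) and 2.32 without 3SA 4. *Cyp4a12a*, a male-biased hydroxylase, had 259, 302, 185 and 211 CPM in WT and 346, 354, 431 and 278 CPM in ERRα3SA livers, a log2 fold change of 0.56 with 3SA 4 inside the WT range. These 2 were the calls among 28 growth hormone dependent and sex-biased genes (beside 2.5% of all genes higher and 2.38% lower). Without 3SA 4, 5 rose and 4 fell (beside 2.86% and 3.74%), without 3SA 2 4 rose, and without 3SA 1 2 fell. The genes that fell without 3SA 4, named after their values were seen, were *Cish*, *Socs2*, *Mup7* and *Hsd3b5*, each with 3SA 4 above every WT liver or, for *Cish*, just under the highest one.

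Of 37 genes of insulin signalling and FoxO targets, 1 rose and 1 fell with all livers (beside 2.5% and 2.38% of all genes, and 1 higher and 0 lower by DESeq2). Without 3SA 4, 1 rose and 6 fell (beside 2.86% and 3.74%). *Cdkn1a*, the cell cycle inhibitor p21, had 11.3, 9.30, 4.69 and 13.0 CPM in the WT livers and 16.8, 16.03, 23.6 and 23.9 CPM in the ERRα3SA livers. All ERRα3SA livers were above all WT livers, with log2 fold change 1.07 (standard error 0.27, DESeq2 adjusted p = 0.0312) and 0.97 without 3SA 4. *Ccng1*, another target of p53 picked after its values were seen, had log2 fold change 0.26, under the fold criterion but past it without 3SA 1, 3SA 2, WT 1 or WT 3 (0.27 to 0.30), and *Mdm2*, picked likewise, 0.10. *Igfbp2*, a binding protein of IGFs that insulin lowers, had 187, 216, 392 and 190 CPM in WT and 191, 129, 125 and 189 CPM in ERRα3SA livers. WT 3 was far above the rest, 3SA 1 and 3SA 4 were at WT level, and the log2 fold change of -0.63 was -0.32 and not called without WT 3, and not called without 3SA 2 or 3SA 3 (-0.55 and -0.54) nor by DESeq2. The further genes that fell without 3SA 4, named after their values were seen, included *Socs3*, *Grb10* and *Sh2b2*, adaptors of insulin and cytokine receptors. The list had 0 lower calls without 3SA 2 or WT 3, and 2 higher and 2 lower without WT 4. Among gluconeogenic genes, *Pck1* and *G6pc*, the enzymes best known as FoxO targets and picked after their values were seen, were not called with or without 3SA 4, at log2 fold change -0.06 and -0.21 with all livers.

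Stress genes moved singly. *Hmox1*, which breaks down heme, had 16.3, 16.3, 13.8 and 15.6 CPM in the WT livers and 18.7, 20.1, 21.8 and 19.5 CPM in the ERRα3SA livers. The groups were apart and narrow, with log2 fold change 0.37 (standard error 0.08) and 0.38 without 3SA 4. *Mt1*, a metallothionein, had 3.71, 3.69, 2.12 and 3.99 CPM in WT and 4.34, 5.06, 5.21 and 40.6 CPM in ERRα3SA livers. All ERRα3SA livers were above the WT livers but 3SA 4 was far above the next, and the log2 fold change of 2.03 became 0.52 without 3SA 4 and 1.86, not called, without WT 3. *Hmox1* and *Mt1* were the 2 calls among 34 genes of the NRF2 and antioxidant list (beside 2.5% of all genes higher). Both calls were lost with the muscle groups in the fit. DESeq2 gave no p for *Mt1*. The list had 5 higher calls without 3SA 4 (beside 2.86%) and 1 without WT 3. *Chac1*, which degrades glutathione and is a target of ATF4, had 4.29, 4.85, 3.51 and 5.31 CPM in WT and 2.06, 2.82, 1.77 and 3.22 CPM in ERRα3SA livers. No ERRα3SA liver reached a WT liver, and *Chac1* fell by 0.86 on the log2 scale, and by 1.01 without 3SA 4. *Gdf15*, a stress-induced secreted factor, had 3.92, 3.58, 4.89 and 5.14 CPM in WT and 10.6, 5.33, 8.19 and 4.37 CPM in ERRα3SA livers. 3SA 1 and 3SA 3 were high and 3SA 4 inside the WT range, and the log2 fold change of 0.70 was not called without 3SA 1, 3SA 3, WT 1 or WT 2 (0.45, 0.63, 0.65 and 0.62). *Gdf15* and *Chac1* were the calls among 24 genes of the integrated stress response (beside 2.5% of all genes higher and 2.38% lower). With the muscle groups in the fit neither *Gdf15* nor *Chac1* was called. Without 3SA 4, 2 rose and 4 fell (beside 2.86% and 3.74%), *Atf4*, *Atf3* and *Cebpb* beside *Chac1*, named after their values were seen.

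The acute phase list had 8 of 34 genes higher with all livers (4 by DESeq2, beside 2.5% of all genes by edgeR), median log2 fold change 0.46. Without 3SA 4 it had 3 higher and 1 lower (beside 2.86% and 3.74%), median 0.01, so most of it lay in that liver. It had 4 or 5 higher calls without WT 1, WT 2 or WT 3 and 12 without 3SA 3. The genes that stayed without 3SA 4 were *Orm3* (1.52 with and 0.81 without), *Serpina3m*, a serine protease inhibitor (0.30 and 0.29, not called without 3SA 3 or WT 4, with 0.26 in both), and *Mt1*. *Orm3* had 0.941 to 1.51 CPM in the WT livers and 2.10, 2.33, 1.86 and 7.46 CPM in the ERRα3SA livers, all above WT. Of 28 genes of TNF signalling and inflammation 4 rose with all livers (beside 2.5% of all genes). *Nfkbia*, the inhibitor of NF-κB, had 24.2, 28.9, 24.01 and 24.7 CPM in WT and 32.9, 28.9, 31.3 and 30.6 CPM in ERRα3SA livers, with WT 2 level with 3SA 2, and rose by 0.28 (not called without 3SA 1, WT 1 or WT 3, with 0.25 to 0.26). *Tnfaip2*, induced by TNF, rose by 0.31 (not called without 3SA 4 or WT 2, with 0.26 and 0.24). *Tnfsf10*, the ligand TRAIL and a member of the interferon list, was called at 0.34 with all livers but in only 2 of the 8 fits without 1 liver, those without 3SA 3 or WT 3. *Tnfrsf11a*, the receptor RANK, was called at 0.74 with all livers but in only 1 of those fits, that without WT 4 (1.14). The list had 1 higher call without 3SA 1, 3SA 4 or WT 1 and 2 without 3SA 2, WT 2 or WT 3, and 1 lower call without 3SA 2.

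Few enzymes of amino acid and drug metabolism were called. *Got1*, the cytosolic aspartate aminotransferase, had 350, 310, 352 and 362 CPM in the WT livers and 187, 244, 303 and 127 CPM in the ERRα3SA livers. 3SA 4 was lowest and 3SA 3 just under WT 2, with log2 fold change -0.68 (standard error 0.22) and -0.49 without 3SA 4. *Sds*, serine dehydratase, which shares 21.3% of its exon bases with *Plbd2*, fell by 0.64 (-0.42 without 3SA 4, and not called without 3SA 2, WT 2, WT 3 or WT 4, at -0.65 to -0.54). These 2 were the calls among 50 genes of one-carbon and amino acid catabolism (4 lower by DESeq2, beside 2.38% of all genes lower by edgeR), of which 45 had a negative log2 fold change (median -0.13). Without 3SA 4 the median was -0.01, and there were 6 lower calls without 3SA 1, 4 without 3SA 3 and 1 without 3SA 2 or WT 2. Of 46 xenobiotic P450 genes 1 rose and 2 fell, 2 rose and 2 fell by DESeq2, and 3 rose and 2 fell without 3SA 4. Of 36 conjugation enzymes 1 fell, and 1 rose and 2 fell without 3SA 4 (of all genes 2.5% rose and 2.38% fell, and 2.86% and 3.74% without 3SA 4). The P450 list had 2 higher calls without 3SA 1, 0 higher without any 1 WT liver and 3 lower without 3SA 1, 3SA 3 or WT 1. The conjugation list had 1 higher without 3SA 3 or WT 4. *Cyp1a2*, a pericentral P450, had 718, 822, 972 and 712 CPM in WT and 719, 577, 548 and 597 CPM in ERRα3SA livers. 3SA 1 was at the low end of WT and the others below it, a log2 fold change of -0.40 (-0.39 without 3SA 4). *Cyp2j9*, an epoxygenase, fell from 6.20 ± 0.374 to 4.60 ± 0.383 CPM (mean ± SD, n = 4), and *Nat8*, an N-acetyltransferase of cysteine conjugates, from 27.2 ± 1.58 to 20.3 ± 2.39 CPM. *Cyp3a13* rose by 0.30 (0.15 and not called without 3SA 4, nor without any 1 WT liver, at 0.25 to 0.32), and *Mlxipl*, the glucose-responsive factor ChREBP, fell by 0.27 (lost without 3SA 1, 3SA 4 or WT 4, at -0.23 to -0.19, and by DESeq2, at -0.26). *Esr1*, the estrogen receptor, rose by 0.47 (0.30 without 3SA 4, and not called without WT 2 at 0.36).

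Genes encoded in mitochondrial DNA had 5 DEGs of 28 tested (17.9%), beside 4.88% of all genes. *mt-Tl2*, a leucine tRNA, had 8.54, 9.37, 8.73 and 6.49 CPM in the WT livers and 4.65, 4.21, 2.79 and 1.52 CPM in the ERRα3SA livers. No livers crossed over, 3SA 4 was lowest, and the log2 fold change was -1.33 (standard error 0.28), or -1.09 without 3SA 4. *mt-Te*, the glutamate tRNA, fell by 0.68, and *mt-Atp8*, a subunit of ATP synthase, rose by 0.67, although it shares 21.1% of its bases with *mt-Atp6*. *mt-Tl2* and *mt-Te* are 71 and 69 bases long. Their counts do not tell mature tRNA from longer transcripts that hold it, here or in muscle below. The share of all counts on mitochondrial genes was 4.36, 4.31, 5.16 and 4.04% in WT and 4.54, 4.78, 4.36 and 4.21% in ERRα3SA livers, with the groups overlapping. Among the nuclear genes that ERRα is best known to control, 0 of 79 OXPHOS subunits and 0 of 25 genes of mitochondrial import were called with all livers by edgeR or by DESeq2, at a p under 0.05 before adjustment. The OXPHOS median log2 fold change was -0.05, and 0.06 without 3SA 4, whose mean for the list was 6.17 log2 CPM against 6.60 to 6.75 in the other livers, and 1 subunit was lower without 3SA 1 or without 3SA 3, as was 1 import gene without 3SA 2 or WT 3. Genes of bile acid synthesis and transport (23) and of cholesterol synthesis (26) also had 0 calls by both tools, with 1 bile acid gene higher without WT 3 and cholesterol genes lower without 3SA 3 (2) or 3SA 4 (1).

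*Clk1*, *Ccnl2*, *Ppp1r10*, *Snrnp70*, *Srsf5* and *Fkbp5* were picked singly after their values were seen and stand for no group. *Clk1*, a kinase of splicing factors, had 49.0, 48.5, 45.5 and 42.0 CPM in the WT livers and 32.4, 37.2, 34.0 and 40.1 CPM in the ERRα3SA livers, the groups apart and the log2 fold change -0.37. *Ccnl2*, a cyclin of splicing speckles, fell by 0.33, *Ppp1r10*, a nuclear subunit of protein phosphatase 1, by 0.58, and *Snrnp70*, of the U1 particle, by 0.27 (lost without 3SA 1, 3SA 3 or WT 4, at -0.24 to -0.21, and by DESeq2, at -0.26). *Srsf5*, a splicing factor, had 155 to 178 CPM in WT and 122, 145, 108 and 177 CPM in ERRα3SA livers, and fell by 0.31 with and 0.45 without 3SA 4, the call being lost without any other liver except WT 1 (-0.34 to -0.21). *Fkbp5*, a cochaperone that glucocorticoids induce, rose from 14.4 ± 2.54 to 22.1 ± 4.49 CPM (mean ± SD, n = 4) with groups apart. Of 42 cell cycle genes 3 rose and 2 fell (beside 2.5% and 2.38% of all genes), *Cdkn1a*, *Ccna2* and *Ccnd1* against *Mcm10* and *Cenpa*. *Ccna2* at 0 to 0.637 CPM in WT and 0.875 to 1.52 CPM in ERRα3SA livers lost its call without 3SA 1 (1.35). *Ccnd1* (0.38) was lost without 3SA 4, WT 1, WT 2 or WT 4 (0.23 to 0.40), *Mcm10* (-0.50) without 3SA 1, 3SA 3, WT 2 or WT 4 (-0.47 to -0.35), and *Cenpa*, named after its values were seen (-0.38), in DESeq2 and without 3SA 1, 3SA 2, 3SA 3, WT 2 or WT 4 (-0.40 to -0.23). *Ccnd1* shares 23.4% of its exon bases with *LTO1*. The lower count was 0 without WT 2 or WT 4 and 1 without 3SA 1, 3SA 2 or 3SA 3. The clock list had 1 call of 22 (beside 2.38% of all genes lower), *Csnk1e*, a casein kinase (-0.33), lost without 3SA 1, 3SA 2, WT 1, WT 2 or WT 3 (-0.35 to -0.24), and the list had 2 lower calls without 3SA 3.

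To see whether the liver changes differ from those in muscle of the same line, the ERRα3SA effect in muscle was subtracted from that in liver in one fit. In muscle, 3SA muscle 1 stood apart with 19.3% of its counts on mitochondrial genes against 9.15 to 10.8% in the other 7 muscles, so values without it are given too. Of the 563 liver DEGs, 470 were tested in muscle and 29 were called there (6.17%, beside 4.54% of all genes tested), 14 in the same direction and 15 in the opposite, and without 3SA muscle 1 118 of 473 were called (beside 17.4% of all 14363 genes tested), 33 in the same direction and 85 in the opposite. For 145 of the 563 genes the difference between tissues had a p under 0.05 before adjustment, a share set in part by the choice of the genes in the same livers, where 881 of 15688 genes tested (5.62%) did. After Benjamini-Hochberg adjustment 0 of those 881 were under 0.05 by edgeR, while DESeq2 gave 1134 genes before and 23 after adjustment, 5 of them liver DEGs. Without 3SA muscle 1 the counts among the 563 were 277 at an unadjusted and 67 at an adjusted p under 0.05 by edgeR, where 2933 (18.3%) and 369 (2.3%) of all 16019 genes tested were.

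Single genes differed between the tissues. *mt-Tl2* had 2.96 to 4.38 CPM in WT muscle and 5.97, 11.4, 13.4 and 8.40 CPM in ERRα3SA muscle, and was thus higher in all 4 ERRα3SA muscles and lower in all 4 ERRα3SA livers. The difference, liver minus muscle, was -2.74 (standard error 0.42) with an adjusted p of 0.107 by the quasi-likelihood test of edgeR with Benjamini-Hochberg adjustment. *mt-Te* also rose in muscle, by 0.83, and its difference was -1.48. For *mt-Te*, however, 3SA muscle 1 was below every WT muscle, at 9.25 CPM against 10.6 to 15.6 CPM. *Krt19* fell in both tissues, by 1.18 in muscle, and *AC149090.1* by 1.51 in muscle. *Got1* rose by 0.29 in muscle and had a difference of -0.94. *Esrra* had 69.7 to 94.2 CPM in WT muscle and 25.8, 140, 134 and 103 CPM in ERRα3SA muscle, where the low value was that of 3SA muscle 1, and its difference of -0.50 had a p above 0.05. Without 3SA muscle 1 *Esrra* rose in muscle by 0.60 and its difference was -0.81, with adjusted p of 0.0373 and 0.0418 by edgeR with Benjamini-Hochberg adjustment. In the same fits the differences of *mt-Tl2*, *mt-Te* and *Got1* were -2.91, -1.74 and -0.99, their changes in muscle 1.61, 1.11 and 0.36, and those of *Krt19* and *AC149090.1* in muscle -1.38 for both, all 5 called there.

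The same genes were looked up in livers that lack ERRα, in the fasted and saline-treated mice. There *Esrra* had 32.7 to 51.8 CPM in the 4 WT and 0.71 to 1.64 CPM in the 4 ERRα-/- livers. Of the 563 genes 515 were tested in that comparison, and 76 were DEGs (14.8%, beside 11.3% of all 13481 genes tested there), 35 in the direction of the knock-in and 41 in the opposite. Without 3SA 4 the count in the same direction was 66 and without WT 3 it was 21, while the opposite count was 63 without 3SA 1. The DEGs outside the interferon list numbered 789, 497 and 727 in those fits, so these counts are from lists of different length.

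*Cdkn1a* rose in both, with 10.6, 27.8, 22.8 and 6.82 CPM in the WT saline livers and 68.8, 24.3, 92.0 and 39.7 CPM in the ERRα-/- livers, a log2 fold change of 1.72 with overlap between the groups. *Hmox1* (0.79), *Pdk4* (0.73), *Zfp979* (2.22), *Epha2* (0.51), *Chordc1* (0.44) and *Esr1* (0.57) rose, and *Sirt7* (-0.34) and *Cyp2j9* (-0.73) fell, in the direction of the knock-in. *Chac1* went the opposite way, with 0.369 to 1.11 CPM in WT saline livers and 9.95, 1.30, 5.89 and 5.19 CPM in ERRα-/- livers (log2 fold change 2.94), whereas it fell in the knock-in. So did *Tent5a* (-0.63), *Vsig4* (-0.39) and *Jund* (0.33), and, picked after their values were seen, *Siglec1* (-0.61), *Cybb* (-0.63), *Igha* (1.11) and *Cdc42ep5* (1.61). These values are from the comparison of ERRα-/- with its own WT controls. The difference between the effects of the knock-in and of the knockout was not tested, since the tables are separate. In addition, a fast is given for the knockout comparison and none for the knock-in.

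**Figure D5:**
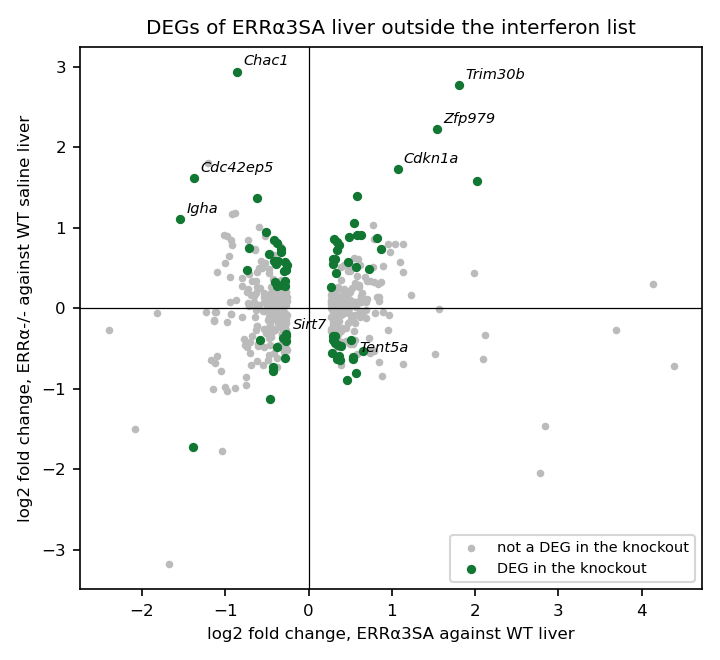
Each point is 1 of the 515 DEGs of ERRα3SA liver outside the interferon list that were tested in the knockout, with its log2 fold change in ERRα3SA against WT liver on the horizontal axis and in ERRα-/- against WT saline liver on the vertical axis. The 76 genes that are DEGs in both are green and lie in all 4 quadrants, 35 in the same direction and 41 in the opposite.

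Promoter sequences were available for 410 of the 563 genes in the RefSeq windows of GRCm38.p6, from 250 bases before to 50 after the start. Of 9 motifs searched on both strands, chosen after the values were seen, the ERR response element TCAAGGTCA was in 2 of 239 promoters of higher and 1 of 291 promoters of lower genes, and in 35 of the 12979 promoters of all tested genes (0.270%). *Rabepk*, singled out after its values were seen, held the match among higher genes in 2 of its promoter windows. The shorter core AAGGTCA, which lies within the longer motif, was in 4.18% of promoters of higher genes, 3.44% of lower genes and 3.53% of all. The interferon response motif GAAANNGAA was in 60.0% of the promoters of the interferon-list DEGs, 9.21% of the higher and 7.56% of the lower DEGs outside the list and 7.39% of all, so genes outside the list carried it at about the share of all promoters. Sites farther from the start, where nuclear receptors often bind, were not analysed here.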

How the data were processed

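The authors deposited raw counts of reads per gene, made by alignment to mm10 with STAR per the submitters' notes and not normalized. The strand setting is not given in the sources used here, so overlapping or antisense genes and paralogs are uncertain. Genes were tested with edgeR 4.0.16 in R 4.3.3 (TMM, filterByExpr, quasi-likelihood fit) on the groups of each comparison alone, and the difference between tissues in one fit of 4 groups. CPM were computed on library sizes scaled by TMM, and log2 values with 2 as prior count. Symbols, exons and positions came from GENCODE M21 on GRCm38, and promoters from RefSeq. The members and gene lists were chosen with earlier results of these data known. Named genes are *Esrra*, *Esrrb* and *Esrrg*, those the study names for these livers, the 15 of smallest p in each direction outside the interferon list with at least 1 CPM and groups apart (predicted genes left out), and up to 4 DEGs of each list. Some genes that meet these rules are not reported here. Any further gene is said where named to have been picked with its values in view. DESeq2 1.42.0, its size factors, no filter, muscle groups in the fit, the replicate number as a block and each liver left out were alternatives. Fits without 3SA muscle 1, and DESeq2 without 3SA 4, were chosen after seeing the data. Scripts were tested on simulated counts.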

Additional observations from a re-analysis of the deposited data

Results flagged for a closer look

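In 29 of 282 groups of 4 livers, 1 liver lay far from the other 3, where chance gives about 1 in 20 groups. Of these, 10 were in 3SA 4. Its total counts were 20481405 against 22454730 to 22836176 in the other ERRα3SA livers. Its acute-phase mean was 8.62 log2 CPM against 6.79 to 7.02, its OXPHOS mean 6.17 against 6.68 to 6.74, and its neutrophil marker sum 222 CPM against 5.06 to 9.58. In the same liver *Lcn2* had 212 CPM against 1.61 to 6.05, *Orm2* 209 against 8.81 to 15.1, *Orm3* 7.46 against 1.86 to 2.33, *Mt1* 40.6 against 4.34 to 5.21, *Cyp3a13* 231 against 156 to 165 and *Esr1* 32.2 against 20.6 to 21.8.

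Of the other ERRα3SA livers, 3SA 1 had 881 CPM of pancreas markers against 23.8 to 41.8, 1.52 CPM of *Ccna2* against 0.875 to 0.985 and 26.4 CPM of *Exoc4* against 27.9 to 28.2. 3SA 3 had 18.5 CPM of skeletal muscle markers against 0.921 to 1.43, 24.5 CPM of adipocyte markers against 18.1 to 18.8 and 6.42 CPM of *Tnfsf10* against 8.84 to 9.17.

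Among the WT livers, WT 1 had 207 CPM of pancreas markers against 37.5 to 55.6, 19.3 CPM of skeletal muscle markers against 0.602 to 1.26, 44.05 CPM of *Chordc1* against 34.0 to 35.5, 8.18 CPM of *Pdgfrb* against 9.72 to 9.95 and 95.9 CPM of *Stip1* against 89.5 to 90.3. WT 2 had 1.02 CPM of *Cd22* against 1.31 to 1.36, 21.9 CPM of *Lrat* against 16.4 to 17.2 and 28.9 CPM of *Nfkbia* against 24.01 to 24.7. WT 3 had 392 CPM of *Igfbp2* against 187 to 216, 2.12 CPM of *Mt1* against 3.69 to 3.99 and 27.3 CPM of *Oasl1* against 17.4 to 18.9. WT 4 had 273 CPM of *Mlxipl* against 223 to 226 and 12.4 CPM of *Orm2* against 7.34 to 8.09.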

How the results depend on the processing

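The number of DEGs (651) was 1050 with no filter on low counts, where more genes are tested, 0 with an adjusted p under 0.05 by edgeR as the criterion, and 507 to 892 with 1 liver left out. Outside the interferon list (563) it was 953 with no filter and 453 to 789 with 1 liver left out. Called genes in any gene list, each counted once and members of the interferon list left out (62), came to 41 with the muscle groups in the fit and 50 to 105 with 1 liver left out. Liver DEGs that differed from muscle (145) numbered 292 with no filter, 277 without 3SA muscle 1 and 101 to 189 with 1 liver left out. DEGs shared in direction with the knockout (35) numbered 55 with no filter and 21 to 66 with 1 liver left out. *Esrrb* (0.01) was -0.034 by DESeq2 without 3SA 4, -0.023 with the replicate block and -0.17 to 0.20 with 1 liver left out, and *Esrrg* (0.16) was -0.30 to 0.63. With the number of the replicate as a block there were 656 DEGs, 576 outside the list. The labels do not say whether livers of the same number are paired. Correlations of deviations between same-numbered livers were 0.0774, -0.0452, -0.00716 and 0.333, and only WT 4 correlated best with its own number. These values cannot tell whether such livers shared a litter or handling. Of 91 named genes called, 8 were lost by DESeq2, 12 with the block and 37 with the muscle groups in the fit. Among the 37 were *Hmox1*, *Mpeg1*, *Folr2*, *Chac1*, *Gdf15*, *Cd79a*, *mt-Atp8*, *Cep85l*, *Pabpn1*, *Erf*, *Zgpat*, *H2afj*, *Hspa4l*, *Jund* and *Cyp2j9*. Apart from fewer or more genes or samples, the cause was not tested.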
